A study of Mus musculus with 10 samples.

Results

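Colony-stimulating factors and the IL-1 and IL-6 cytokines were examined in sorted tumour epithelial cells as 10 genes: Csf1, Csf2, Csf3, Il1a, Il1b, Il1rn, Il6, Lif, Il33 and Il18. They were chosen by name, as ligands of these families, out of 51707 genes with a deposited transcript estimate. Earlier results of these data were known when they were chosen. All 10 passed the filter on low counts. The cells came from pancreatic ductal adenocarcinoma (PDAC) grown in the mouse pancreas from T6-LOH KPC organoids, a line from a genetic mouse model of this cancer. Every tumour received pancreatic stellate cells (PSCs), the fibroblast precursors of the pancreas, together with the organoids. The PSCs were a control line, PSC4 ROSA (egfr), in 5 libraries, and the knockout line PSC4 EGFR KO B4, a single clone, in the other 5 libraries. The hosts were NSG mice by the series title, which lack mature lymphocytes and natural killer cells but keep myeloid cells. The strain label reads C57BL/6J in all 10 libraries, and for age no label was found. The libraries are called WT 1 to WT 5 and KO 1 to KO 5 below, after the Egfr genotype of the PSCs and not of the sequenced cells. Nothing in the labels states that the libraries are from different mice, and the p-values therefore describe the spread among these libraries, which may be technical.

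Colony-stimulating factors are secreted proteins that drive the growth and survival of myeloid cells. IL-1 family cytokines are alarm signals of epithelia and leukocytes, many of them made without a secretion signal and released by damaged or dying cells, and IL-1 acts through MyD88 and NF-kB. IL-6 and LIF signal through the shared receptor chain gp130 to STAT3, and in pancreatic cancer IL-1, IL-6 and LIF are known as messengers between tumour cells and fibroblasts.

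The question was whether these transcripts differed in the tumour cells when the neighbouring PSCs lacked Egfr. With a single knockout clone and a single control line, loss of Egfr cannot be told apart from other differences between these lines. The deletion lies in the PSCs and not in the sequenced cells, so Egfr in these libraries does not check the labels: it stood at 58.5 ± 16.2 CPM (counts scaled to a common library total) in the WT libraries and 63.4 ± 9.12 in the KO libraries (mean ± SD, n = 5 each). Estimated counts in genes lay between 39533698 and 53815744 per library. Counts were normalised between libraries (TMM) and given as CPM, which compare 1 gene between libraries. TPM, which correct for transcript length, were used to compare genes with each other. Log2 fold changes compare KO with WT libraries and come, with the standard error (SE), from the quasi-likelihood test of edgeR, adjusted by Benjamini-Hochberg over the 17495 genes tested. Epithelial markers were present in all libraries, with Epcam at 225 CPM on average in both groups, and the 10 epithelial markers together summed to between 15713 and 27641 CPM.

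Csf1, Il33 and Il18 were on average about 2-fold lower in the KO libraries, and Il1b was lower by less than 1 log2 unit. Il1a, Lif and Csf2 were higher on average, and Csf3, Il1rn and Il6 differed by less than 0.25 on the log2 scale, although the value of Il6 depended on the method. With edgeR none of the 10 genes passed an adjusted p of 0.05, and neither did any other gene (0 of 17495, 0%). The voom test of limma also called none. With DESeq2, Csf1 passed, as did 127 of 17118 genes with an adjusted p (0.742%), 0.497% in the lower direction. At an unadjusted p under 0.05 in edgeR, 3 of the 10 genes were counted, all of them lower in the KO libraries. Of all genes, 8.15% reached that level in either direction, 4.6% in the lower and 3.55% in the higher direction. The 10 genes were chosen with earlier results of these data known, so their count is a description and not a test. Over the list 5 genes were lower and 5 higher, with a median log2 fold change of -0.01, and 49.9% of all genes were lower with a median of 0.00041.

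**Figure D1:**
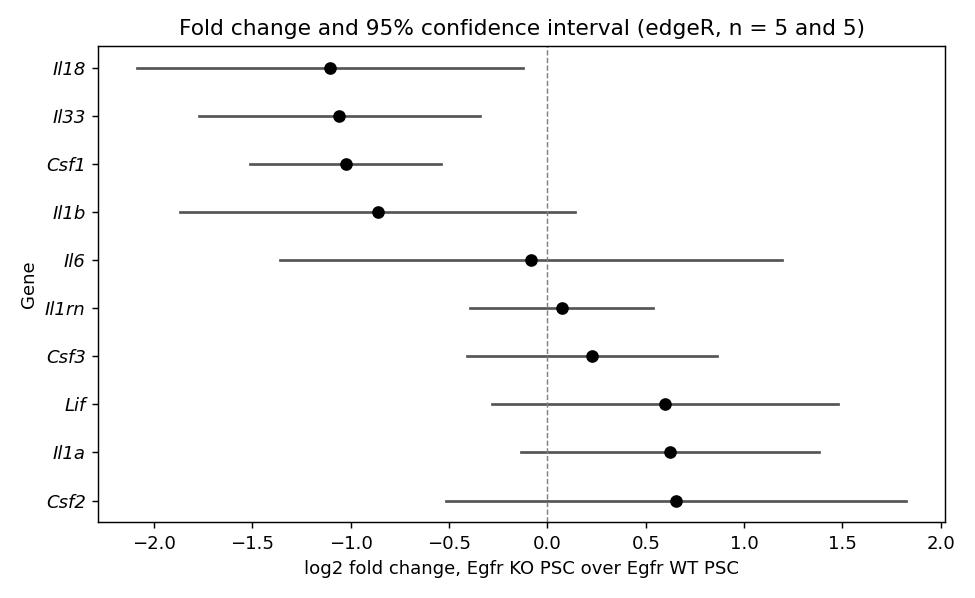
Points are the log2 fold change of each gene, KO over WT, and lines the 95% confidence interval from edgeR (5 libraries in each group). The intervals of Csf1 (-1.51 to -0.54), Il33 (-1.77 to -0.34) and Il18 (-2.09 to -0.13) lie below 0, and those of the other 7 genes include 0.

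Csf1 encodes the macrophage colony-stimulating factor (M-CSF), the ligand of the receptor Csf1r on macrophages and their precursors. Its level was 7.51, 12.6, 9.57, 5.78 and 10.9 CPM in WT 1 to WT 5 and 4.502, 4.96, 5.67, 3.86 and 3.79 CPM in KO 1 to KO 5. Every KO library lay below every WT library, although KO 3 and WT 4 lay close together, and Csf1 was the only one of the 10 genes whose groups did not overlap. Such separation in either direction was seen in 1.52% of all genes, in 0.743% with all KO libraries below and in 0.777% with all KO libraries above. The means were 9.27 ± 2.70 and 4.55 ± 0.788 CPM (SD, n = 5 each), a log2 fold change of -1.03 (SE 0.22). The adjusted p of Csf1 was 0.347 with edgeR's quasi-likelihood test (unadjusted 0.000618) and 0.00552 with DESeq2. On the scale of log2(TPM + 1) the Csf1 difference was -0.79, with an exact two-sided permutation p of 0.00794, unadjusted for the 10 genes. This is the smallest p that 5 against 5 libraries can give. It follows from the separation of the groups, which also held in TPM. Between 162 and 666 estimated counts per library stood behind these values.

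The Csf1 promoter is shown because Csf1 was the gene whose groups separated. RefSeq places it on the minus strand at chr3:107760420-107760719 of GRCm38.p6, a build older than the GRCm39 reference of the quantification, and the stretch runs from 250 bases before the annotated start to 50 bases after it. The capitals mark a match to the NF-kB (kappaB) consensus, found by a search of both strands, at position -154 from the start.
Csf1 promoter: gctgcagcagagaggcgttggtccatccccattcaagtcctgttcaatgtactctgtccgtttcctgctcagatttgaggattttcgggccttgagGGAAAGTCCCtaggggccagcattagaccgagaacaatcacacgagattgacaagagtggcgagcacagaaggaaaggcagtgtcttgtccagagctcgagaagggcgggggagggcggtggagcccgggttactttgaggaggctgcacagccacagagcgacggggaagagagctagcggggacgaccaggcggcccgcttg
A kappaB consensus match was present in 8.46% of 32851 RefSeq promoters of the same length. Among the 9 genes with a promoter in the table it was found in Csf1, Il6 (position -44) and Lif (position -178). For Csf2 and Il18 the stretch searched lay wholly upstream of the annotated starts of all their quantified transcripts. The bases next to those starts were not searched, so the lack of a match in these genes does not cover them. The AP-1 letters TGANTCA, in 7.81% of promoters, were found in Il1a (position -12), the upstream start of Il1rn (-141), Lif (-228) and Il6 (-249), and no match overlapped another. Il6 and Lif thus held both motifs and Csf1 the kappaB motif alone. A match is a description of letters and does not show binding.

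Csf1 transcripts differ in their sixth exon, whose long form encodes the secreted proteoglycan and glycoprotein and whose short form encodes a membrane-bound protein. The long forms held 61.2 ± 16.2% of the estimated Csf1 count in the WT libraries and 65.2 ± 3.63% in the KO libraries, and the short form 37.8 ± 16.2% and 33.8 ± 3.63% (SD, n = 5 each). The shares overlapped between the groups. Since these transcripts share most of their sequence, the division between them is the estimate of the quantification.

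The counterpart of M-CSF at the same receptor is IL-34, encoded by Il34. Il34 stood at 34.7 ± 5.66 CPM in the WT libraries and 34.8 ± 8.77 CPM in the KO libraries (log2 fold change 0.00, SE 0.18). Per length, Il34 averaged 46.8 TPM and Csf1 3.04 TPM over the 10 libraries. The receptor Csf1r, itself a macrophage marker, was at 5.94 ± 1.93 and 7.14 ± 2.06 CPM.

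Csf2 encodes GM-CSF, which acts on granulocytes, macrophages and dendritic cells. Its level was 1.33, 1.74, 0.95, 2.49 and 5.84 CPM in the WT libraries and 3.16, 2.12, 5.81, 6.95 and 1.40 CPM in the KO libraries. The groups overlapped over most of their range, with WT 5 among the 3 highest libraries and KO 5 among the 3 lowest. The log2 fold change of Csf2 was 0.66 (SE 0.54), with an adjusted edgeR p of 0.778, and it ranged from 0.35 without KO 4 to 1.26 without WT 5.

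Csf3 encodes G-CSF, the main growth factor of neutrophils. It stood at 7.83, 16.2, 13.3, 18.1 and 23.9 CPM in the WT libraries and at 22.7, 18.7, 18.7, 23.3 and 9.54 CPM in the KO libraries. Both groups held 1 low library, WT 1 and KO 5, and otherwise overlapped. The log2 fold change of Csf3 was 0.23 (SE 0.29), with an adjusted edgeR p of 0.863, and it was 0.06 without WT 1 and 0.42 without WT 5.

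**Figure D2:**
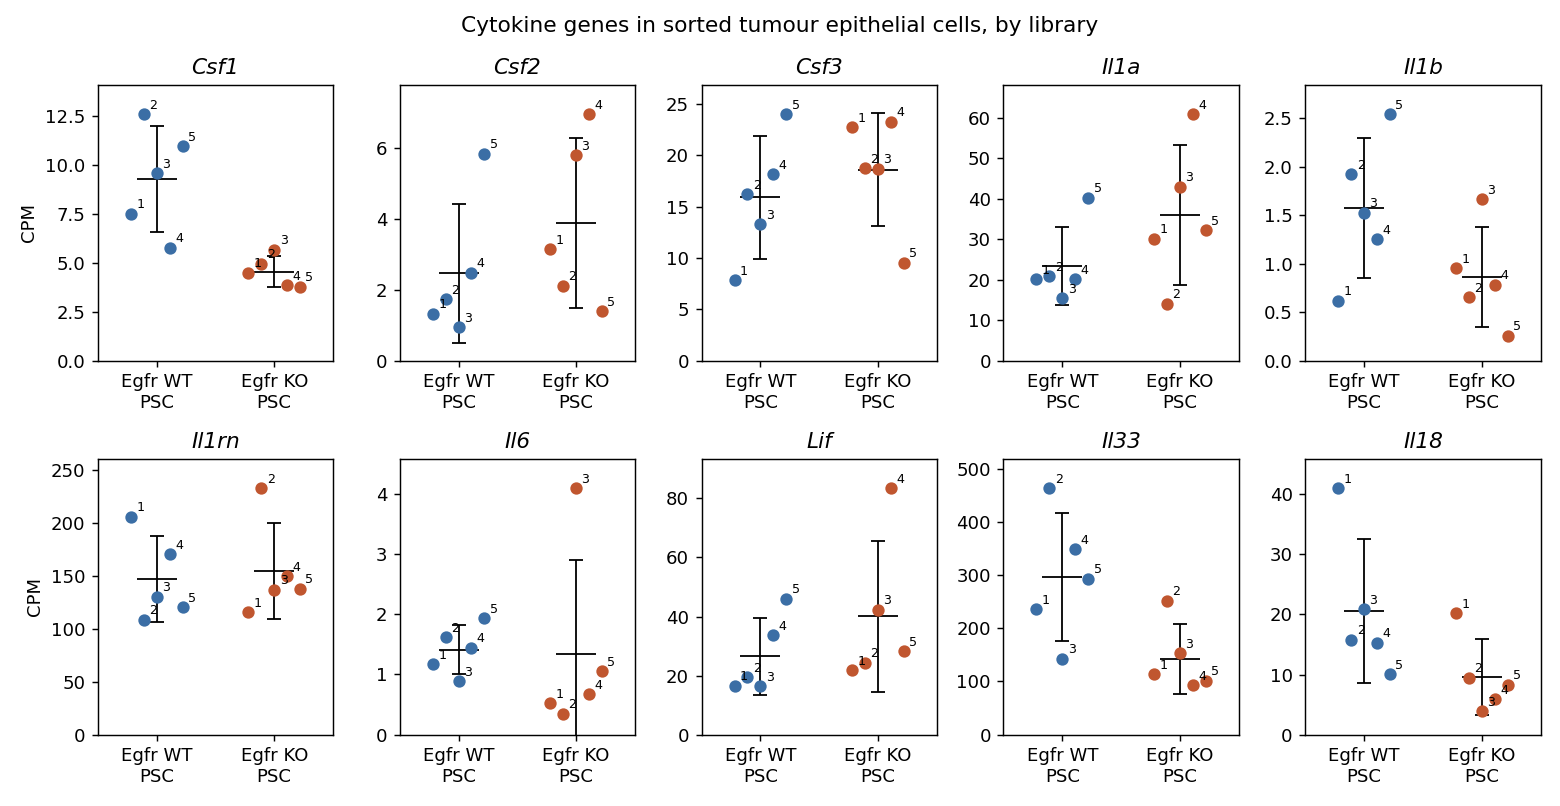
Each panel shows 1 gene, with CPM on an axis that starts at 0. Points are libraries with their replicate number, and horizontal bars with whiskers are the mean and SD of 5 libraries. Csf1 is the gene without overlap between the groups, Il33 and Il18 overlap with lower means in KO libraries, and Il6 has a single high library, KO 3.

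Il33 encodes IL-33, a nuclear alarmin of barrier epithelia that is released on damage and acts on the receptor ST2. Its level was 236, 464, 143, 349 and 293 CPM in the WT libraries and 114, 251.9, 153, 93.0 and 101 CPM in the KO libraries. Of the KO libraries, 3 lay below every WT library, KO 2 lay above WT 1 and 3, and KO 3 above WT 3. The means were 297 ± 120 and 143 ± 65.3 CPM, a log2 fold change of -1.06 (SE 0.33). The adjusted p of Il33 was 0.457 with edgeR's quasi-likelihood test (unadjusted 0.00737) and 0.113 with DESeq2. On log2(TPM + 1) the Il33 difference was -1.05, with an exact permutation p of 0.0397, unadjusted for the 10 genes tested in this way. Il33 had between 3905 and 24557 estimated counts per library, so counting error is small beside the spread between libraries.

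Il33 is transcribed from several starts, and both promoters in the RefSeq table are shown because the quantification listed transcripts from both. They lie on the plus strand at chr19:29924863-29925162 (upstream) and chr19:29945540-29945839 (downstream) of GRCm38.p6. Capitals mark the letters TATAAA, searched on both strands, near the 5′ end of the upstream window and at position -29 of the downstream promoter.
Il33 upstream promoter: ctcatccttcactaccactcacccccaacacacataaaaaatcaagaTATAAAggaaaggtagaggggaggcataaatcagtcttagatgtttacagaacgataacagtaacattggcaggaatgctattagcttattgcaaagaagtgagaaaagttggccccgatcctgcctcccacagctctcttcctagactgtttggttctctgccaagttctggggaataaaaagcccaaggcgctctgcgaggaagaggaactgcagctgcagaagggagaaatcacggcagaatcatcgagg
Il33 downstream promoter: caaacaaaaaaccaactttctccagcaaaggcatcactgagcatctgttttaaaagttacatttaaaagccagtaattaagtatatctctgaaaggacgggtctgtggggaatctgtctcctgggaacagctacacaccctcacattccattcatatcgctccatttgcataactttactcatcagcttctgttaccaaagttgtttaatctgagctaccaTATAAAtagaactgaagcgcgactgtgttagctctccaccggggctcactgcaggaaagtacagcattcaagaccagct
The letters TATAAA were present in 13.62% of the 32851 promoters. Transcripts from the downstream start held 75.2 ± 7.83% of the Il33 count in the WT libraries and 75.3 ± 7.42% in the KO libraries, and those from the upstream start 24.8 ± 7.83% and 24.7 ± 7.44% (SD, n = 5 each). The estimated counts from both starts were thus divided alike on average in the groups while the total was lower on average in the KO libraries. Between libraries the downstream share ran from 64.5 to 84.7%. As for Csf1, the division between transcripts is the estimate of the quantification. Il1rl1, which encodes the IL-33 receptor ST2, was at 1.25 ± 0.744 and 0.737 ± 0.194 CPM.

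Il18 encodes IL-18, an epithelial cytokine stored as a precursor and cut by caspase-1. It stood at 41.0, 15.8, 20.9, 15.3 and 10.1 CPM in the WT libraries and at 20.2, 9.46, 3.89, 5.90 and 8.30 CPM in the KO libraries. Of the KO libraries, 4 lay below every WT library, and KO 1 lay above 3 of them. The means were 20.6 ± 12.0 and 9.56 ± 6.35 CPM, a log2 fold change of -1.11 (SE 0.45). The adjusted edgeR p of Il18 was 0.557 (unadjusted 0.0301), and the exact permutation p on log2(TPM + 1) was 0.0556. Without WT 1, the highest library, the Il18 log2 fold change was -0.70 with an unadjusted edgeR p of 0.116.

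The IL-18 receptor genes had the opposite sign. Il18r1 was at 34.2 ± 5.84 CPM in the WT libraries and 50.2 ± 10.8 in the KO libraries, a log2 fold change of 0.56 (SE 0.17) with an adjusted edgeR p of 0.457 (unadjusted 0.00725). Il18rap, its partner chain, was at 31.1 ± 4.07 and 37.1 ± 4.36 CPM. Whether ligand and receptor differed from each other in their response was not tested.

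Il1a and Il1b encode the agonists IL-1 alpha and IL-1 beta, from separate genes on chromosome 2. Il1a stood at 20.2, 20.95, 15.5, 20.2 and 40.3 CPM in the WT libraries and at 30.2, 14.1, 43.0, 60.8 and 32.3 CPM in the KO libraries. In 4 of the 5 WT libraries Il1a lay near or below 21 CPM, and KO 2 was the lowest of all 10 libraries, so the groups overlapped. Its log2 fold change was 0.62 (SE 0.35), with an adjusted edgeR p of 0.674, and it ranged from 0.36 without KO 4 to 0.91 without WT 5.

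Il1b averaged 1.45 TPM, against 22.2 TPM for Il1a. It stood at 0.62, 1.93, 1.53, 1.26 and 2.54 CPM in the WT libraries and at 0.96, 0.66, 1.67, 0.79 and 0.26 CPM in the KO libraries. The lowest library, KO 5, held 11 estimated counts and the highest 110. The groups overlapped, with WT 1 below 4 of the KO libraries. The log2 fold change of Il1b was -0.86 (SE 0.46), with an adjusted edgeR p of 0.663. Across the 10 libraries Il1a and Il1b showed a Pearson correlation of log2 CPM of 0.0446 (permutation p = 0.904) and a Spearman rho of 0.176 (p = 0.635).

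Il1rn encodes the IL-1 receptor antagonist, which occupies Il1r1 without signalling. It had the highest TPM of the 10 genes over all 10 libraries (147 TPM), but not in the WT libraries, where Il33 averaged 172 and Il1rn 143 TPM. Of the Il1rn TPM, 33% came from a transcript of 321 bases that held 4.24% of its count, and without it Il1rn averaged 98.5 TPM, below Il33 (128 TPM). Il1rn stood at 206, 109, 130, 170 and 120 CPM in the WT libraries and at 116, 233, 137, 150 and 138 CPM in the KO libraries. The groups covered nearly the same range, and the highest library was KO 2. The log2 fold change was 0.07 (SE 0.21, 95% interval -0.39 to 0.54), with an adjusted edgeR p of 0.953.

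Il1rn has an upstream start, which gives intracellular forms of the antagonist, and a downstream start, which gives the secreted form. Upstream transcripts held 57.3 ± 4.23% of the count in the WT libraries and 59.1 ± 3.59% in the KO libraries (SD, n = 5 each). The shares differed by less than their SD and are estimates of the quantification. The signalling receptor Il1r1 was at 88.9 ± 24.1 and 80.7 ± 12.1 CPM.

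Il6 encodes IL-6, which acts through Il6ra and gp130. Its level was 1.17, 1.62, 0.89, 1.44 and 1.94 CPM in the WT libraries and 0.53, 0.35, 4.09, 0.67 and 1.05 CPM in the KO libraries. The single high library, KO 3, set the mean of its group, and 3 of the other 4 KO libraries lay below every WT library. The log2 fold change of Il6 was -0.08 (SE 0.59), with an adjusted edgeR p of 0.979. It was -0.65 with voom, -0.51 with limma on log2(TPM + 0.1) and -0.83 when the number in the file name entered the fit. Without KO 3 it was -1.12, with an adjusted edgeR p of 0.354 (unadjusted 0.00973). KO 3 also had the highest sum of 10 endothelial markers, 70.4 CPM, while the other libraries held between 16.6 and 52.1 CPM. The part of endothelial RNA in the Il6 value was not tested.

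The quantification assigned the Il6 counts to different annotated transcripts in the groups. Il6-204, which lacks the first exon of the main transcript and starts in an extended form of its second exon, was listed at 0 in all 5 WT libraries. In the KO libraries it received 16.3, 13.2, 29.2, 5.81 and 7.502 estimated counts, between 16.5 and 73.4% of the Il6 count. The main transcript held 66.4 ± 14.0% of the count in the WT libraries and 27.4 ± 27.1% in the KO libraries, and was listed at 0 in KO 1 and 2.

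This pattern was picked out after the values were seen and was given no test. Of 104784 transcripts above 0 in at least 1 library, 22 (0.021%) were at 0 in all WT libraries and above 0 in all KO libraries, and 14 (0.013%) showed the reverse. A count of 0 among the 327 Il6 estimated counts of the WT libraries allows a share of up to 0.917%, for counting error only. The transcripts overlap in most of their exons, so a 0 is the estimate of the quantification and not a direct count of reads.

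**Figure D3:**
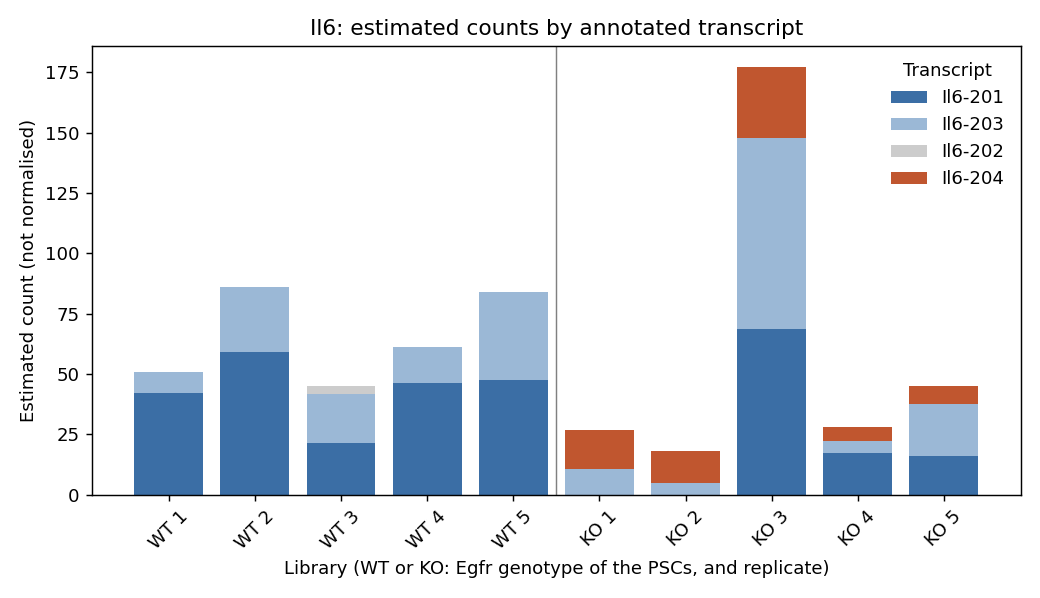
Bars are the estimated counts of Il6 in each library, not normalised, stacked by annotated transcript. Il6-204 appears in the 5 KO libraries and in none of the 5 WT libraries, and KO 3 has the highest total, 177.

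Lif encodes leukemia inhibitory factor, which acts through Lifr and gp130. It stood at 16.6, 19.5, 16.4, 33.7 and 46.0 CPM in the WT libraries and at 21.8, 24.4, 42.2, 83.4 and 28.3 CPM in the KO libraries. The groups overlapped: WT 5 was the second highest library and KO 4 the highest. The log2 fold change of Lif was 0.60 (SE 0.40), with an adjusted edgeR p of 0.726, and it was 0.15 without KO 4. Transcripts of Lif from the upstream start held 55.2 ± 8.06% of its count in the WT libraries and 63.3 ± 18.1% in the KO libraries. These shares are likewise estimates of the quantification.

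Per length, the signalling chains Il6st (26.1 TPM) and Lifr (14.7 TPM) stood above Il6 (1.54 TPM) on average, while Il6ra was near it (1.65 TPM). Il6st, which encodes gp130, was at 145 ± 35.4 CPM in the WT libraries and 99.8 ± 16.2 in the KO libraries, a log2 fold change of -0.54 (SE 0.17) with an adjusted edgeR p of 0.472 (unadjusted 0.0095). Lifr was at 107 ± 37.8 and 79.6 ± 14.8 CPM, and Il6ra at 3.61 ± 0.849 and 4.32 ± 1.29 CPM.

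Messages of many cytokines carry AU-rich elements in the 3′ UTR, which are bound by decay factors such as tristetraprolin. The letters ATTTA were counted in the 3′ UTR of the most abundant coding transcript of each gene (GENCODE M21). Windows of 30 bases, 5′ to 3′ with ATTTA in capitals, are shown for the 3 genes of highest density and for Lif, the only other gene with the longer element TTATTTATT beside Csf2.
Csf2: tttaaatATTTATTTATTTATTTATTTAtt
Il6: taattatttttaATTTAttgataATTTAaa
Csf3: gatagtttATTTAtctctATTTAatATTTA
Lif: gcaaaggggcctttATTTAttATTTAaaac
Csf2 held 9 copies in 317 bases (28.4 per kb), Il6 6 in 427 (14.1 per kb), Csf3 6 in 669 (8.97 per kb) and Il1b 4 in 459 (8.71 per kb). Density was lower in Il18 (1 copy in 123 bases, 8.13 per kb), Il1a (2.72), Lif (2.20), Csf1 (1.89) and Il33 (1.80), and Il1rn held none. The median of the 10 genes was 5.43 copies per kb, against 1.22 per kb over 14021 tested genes with a 3′ UTR. It lies midway between Il18, with its single copy, and Il1a. The element TTATTTATT was found 4 times in Csf2 and 2 times in Lif, and in 7.0% of those genes.

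Per length, the order of mean TPM over the 10 libraries was Il1rn (147), Il33 (128), Il18 (29.5), Il1a (22.2), Csf3 (19.8), Lif (13.0), Csf2 (6.58), Csf1 (3.04), Il6 (1.54) and Il1b (1.45). Il33 exceeded Il18 in 10 of 10 libraries and Lif exceeded Csf2 in 10 of 10, so these steps held in every library. The other steps changed places between libraries, and some differed between the groups. Il1rn exceeded Il33 in 2 of 5 WT libraries and in 5 of 5 KO libraries, with means of 143 and 172 TPM (WT) and 151 and 83.7 TPM (KO). Csf2 exceeded Csf1 in 2 of 5 WT and in 5 of 5 KO libraries (5.08 and 4.15 TPM in WT, 8.08 and 1.94 TPM in KO). Il18 stood above Il1a on average in the WT libraries (40.7 and 17.6 TPM) and below it in the KO libraries (18.3 and 26.8 TPM). These splits restate the group differences of single genes and were not tested. Csf3 exceeded Lif in 8 libraries and Csf1 exceeded Il6 in 9, while Il1a exceeded Csf3 in 5 and Il6 exceeded Il1b in 4. The antagonist transcript thus stood well above both agonists, with Il1rn above Il1a in every library, also without its shortest transcript.

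**Figure D4:**
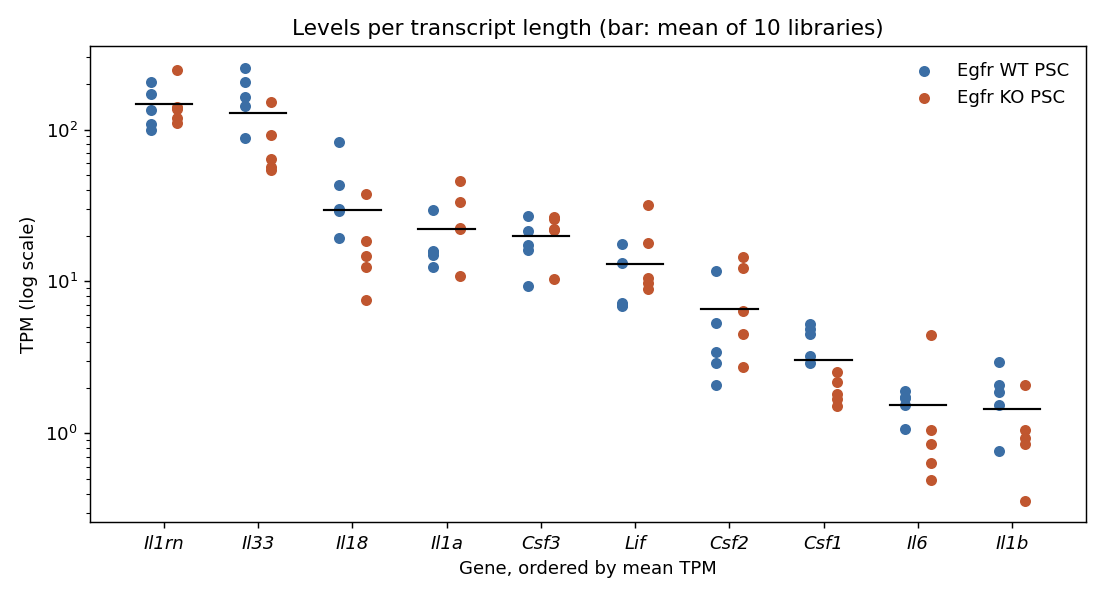
The vertical axis is TPM on a log scale and the genes are ordered by mean TPM over 10 libraries (horizontal bar). Points are libraries, coloured by PSC genotype. Il1rn (147 TPM) and Il33 (128 TPM) lie highest over all libraries, Il33 above Il1rn in the WT group, and Il6 (1.54 TPM) and Il1b (1.45 TPM) lowest.

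The genes varied unequally between libraries. The highest library exceeded the lowest 11.8-fold for Il6, 10.6-fold for Il18, 9.88-fold for Il1b and 7.31-fold for Csf2, but 2.14-fold for Il1rn and 3.06-fold for Csf3. Correlations of log2 CPM over the 10 libraries were computed for all 45 pairs, with permutation tests and Benjamini-Hochberg adjustment over the pairs. Csf2 and Lif were highest together in KO 4, WT 5 and KO 3. Their Pearson r was 0.87 (permutation p = 0.0008, adjusted 0.036) and Spearman rho 0.879 (p = 0.0016, adjusted 0.036). The r of Csf2 and Lif was 0.849 after group means were removed, 0.773 without the 2 libraries farthest from the Csf2 median, and 0.868 after removing the means of a number in the deposited file names. Csf2 and Csf3 had an r of 0.77 (permutation p = 0.00863, adjusted 0.0871) and a rho of 0.891 (p = 0.00113, adjusted 0.036), and r was 0.672 without the 2 farthest libraries. No other pair passed, Il1a and Lif coming next with r = 0.826 (permutation p = 0.00306, adjusted 0.0688). Lif and Il18 ran in opposite directions, with r = -0.763 (permutation p = 0.00968, adjusted 0.0871).

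**Figure D5:**
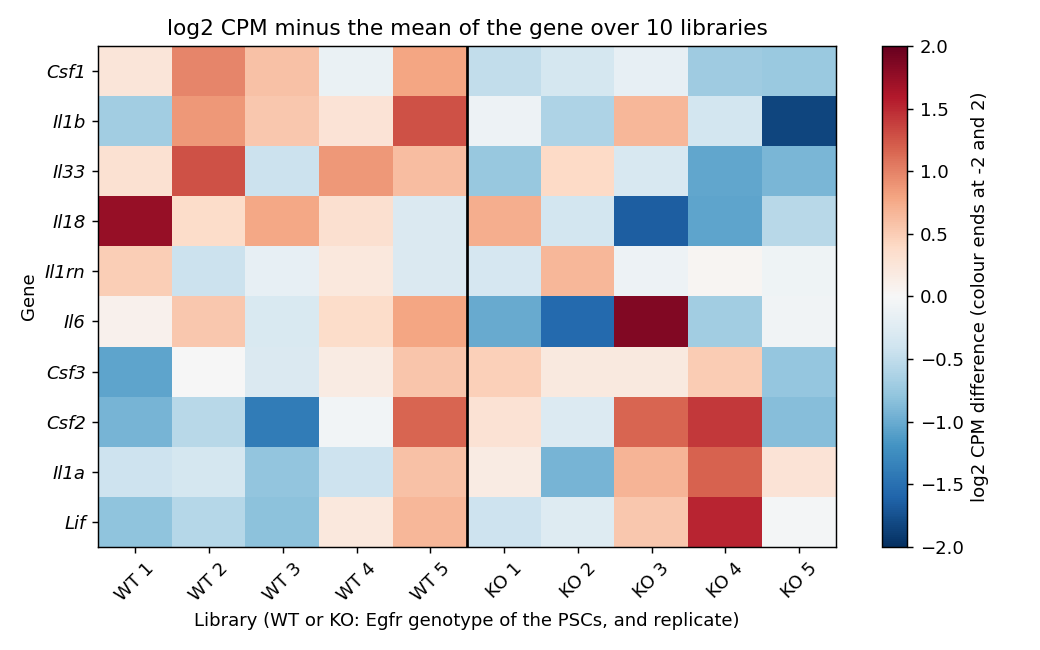
Colour is the log2 CPM of a gene in a library minus its mean over the 10 libraries, from -2 (blue) to 2 (red), and the black line divides WT from KO libraries. Csf2, Il1a and Lif are high together in WT 5, KO 3 and KO 4, and Csf1 is above its mean in 4 of 5 WT libraries and below it in all 5 KO libraries.

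Among 10015 genes at 5 CPM or more, Nagk (r = 0.927) and Cds2 (r = 0.919) were among the genes whose log2 CPM most resembled that of Csf1 over the 10 libraries. For Il1rn, the gene of highest mean TPM over all 10 libraries, they were Nup160 (0.922), Ncaph (0.915) and Gtf3c2 (0.90). These were selected as the highest values and carry no p.

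Genes that make, release, sense or degrade these cytokines were counted from lists, none of which held a gene past the edgeR threshold or the DESeq2 threshold. Of all genes, 8.15% had an unadjusted edgeR p under 0.05, 4.6% in the lower direction. The counts at that level in these lists were small and were not tested against those shares. Of 15 receptor genes, 7 were higher and 8 lower in the KO libraries (median log2 fold change -0.07), and 2 had an unadjusted edgeR p under 0.05. Per length the most abundant was Sigirr, a negative regulator of IL-1 family receptors, at 68.0 TPM. Of 11 related ligands above the filter, 6 were higher and 5 lower (median 0.00), with 0 at that level. Clcf1, a ligand of the gp130 family, averaged 71.0 TPM and Kitl, the stem cell factor gene, 65.5 TPM. The ligands of lowest p were Flt3l (1.29 ± 0.407 and 0.837 ± 0.332 CPM), Osm (0.474 ± 0.354 and 0.271 ± 0.0762 CPM) and Il36g (0.789 ± 0.225 and 0.690 ± 0.160 CPM). Csf2ra, the ligand-binding chain for GM-CSF, was at 9.32 ± 1.47 and 7.27 ± 1.30 CPM.

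Of 16 genes of processing and release, 7 were higher and 9 lower (median -0.06), with 1 at an unadjusted edgeR p under 0.05. Gsdmd, the pore-forming gasdermin D through which mature IL-1 beta leaves cells, was at 59.6 ± 19.0 CPM in the WT libraries and 36.9 ± 15.3 in the KO libraries (log2 fold change -0.69, SE 0.31, adjusted edgeR p of 0.604, unadjusted 0.0438). Casp1, which cuts IL-1 beta and IL-18, was at 10.9 ± 5.03 and 12.9 ± 6.93 CPM. The DNA sensor Aim2 was at 7.14 ± 3.08 and 12.0 ± 7.62 CPM, and Gsdme at 50.4 ± 10.9 and 63.7 ± 17.4 CPM. The most abundant genes of this list per length were Capn2 (91.7 TPM), whose product belongs to the calpains that cut the IL-1 alpha precursor, Casp8 (80.3 TPM) and Ninj1 (58.5 TPM).

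Of 17 genes of IL-1 receptor signalling, 9 were higher and 8 lower (median 0.02), with 2 at that level, both lower. Myd88, the adaptor of the receptor, averaged 76.3 ± 11.4 and 61.0 ± 8.53 CPM (log2 fold change -0.32, SE 0.13, adjusted edgeR p of 0.557, unadjusted 0.0297). Irak3, an inhibitory kinase family member, averaged 2.82 ± 1.45 and 1.37 ± 0.791 CPM (log2 fold change -1.04, SE 0.47, adjusted edgeR p of 0.604, unadjusted 0.0454). Ikbkb and Tollip were the other abundant genes, at 68.9 and 47.1 TPM. Of 12 decay factors, 7 were higher and 5 lower (median 0.00), again with 2 at that level, both lower. Zfp36, the tristetraprolin gene, was at 1110 ± 163 and 849 ± 241 CPM and its relative Zfp36l1 at 976 ± 110 and 807 ± 112 CPM (adjusted edgeR p of 0.604 for both, unadjusted 0.0470 and 0.0453). Zc3h12a, the gene of the RNase regnase-1, was at 32.0 ± 3.21 and 26.5 ± 4.91 CPM.

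Markers of macrophages, fibroblasts and endothelial cells were mostly lower in the KO libraries, as were Csf1, Il33 and Il18. Of all genes, 49.9% were lower, and 4.6% were lower at an unadjusted edgeR p under 0.05. Of 12 macrophage markers above the filter, 4 were higher and 8 lower in the KO libraries, 7 of them at an unadjusted edgeR p under 0.05 and all 7 lower. Their sum ran from 275 to 468 CPM in the WT libraries and from 225 to 337 CPM in the KO libraries, with 79.0% of it from Cd14. Without Cd14 the sum was 41.2 to 99.3 CPM and 54.2 to 87.4 CPM. Of 14 fibroblast and stellate cell markers, 3 were higher and 11 lower, with a sum of 387 to 978 and 355 to 1273 CPM, of which Col3a1 made up 64.4%. Of these, 4 had an unadjusted edgeR p under 0.05, all lower, and Col1a1, which encodes a chain of type I collagen, passed with DESeq2. Col1a1 was at 199 ± 55.2 CPM in the WT libraries and 96.6 ± 27.2 in the KO libraries, a log2 fold change of -1.04 (SE 0.22) with an adjusted p of 0.321 with edgeR and 0.00643 with DESeq2. Its fold change and calls were close to those of Csf1, but unlike Csf1 no marker of this list had groups without overlap. The higher markers were Col3a1, Thy1 and Pdgfrb (log2 fold change 0.21, 0.33 and 0.11). Without Col3a1 the sum was 234 to 415 CPM in the WT libraries and 136 to 240 CPM in the KO libraries. All 10 endothelial markers were lower on average, none of them at an unadjusted edgeR p under 0.05. They summed to 34.2 to 52.1 CPM in the WT libraries and 16.6 to 70.4 CPM in the KO libraries, with KO 3 the highest of all. Neutrophil markers other than Ltf summed to at most 6.36 CPM, mast cell markers to at most 0.91 CPM and lymphocyte markers to at most 4.21 CPM in any library. Of 5 neutrophil markers above the filter, 2 were higher and 3 lower in the KO libraries (median log2 fold change -0.38). Ly6g, among the higher ones, was at 0.680 ± 0.162 CPM in the WT libraries and 1.97 ± 1.05 in the KO libraries. Its groups did not overlap (log2 fold change 1.53, SE 0.37), and 0.777% of all genes had all KO libraries above. The adjusted p of Ly6g was 0.376 with edgeR and 0.0198 with DESeq2. No marker of these lists was at 0 in all libraries. In bulk samples, fewer cells of a type and less RNA per cell cannot be told apart. The part of RNA from these cells in the values of Csf1, Il33, Il18 and Il1b was not tested.

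Each deposited file name carries a number (8, 9 or 10) whose meaning the labels do not state. Within these numbers, with 1 or 2 libraries of each group, the difference in log2 CPM was -1.43, -1.40 and -0.475 for Csf1, -1.90, -1.14 and -0.761 for Il33, and -1.47, -1.29 and -0.855 for Il18. These 3 genes were thus lower in the KO libraries within each number. Lif differed by 0.823, 1.60 and -0.036, Il1a by 0.829, 1.28 and 0.031, and Csf2 by 0.708, 1.53 and 0.498. Il6 differed by 0.353, -0.94 and -1.51, Il1rn by 0.338, 0.259 and -0.189, Csf3 by -0.278, 0.383 and 0.788, and Il1b by -1.46, -1.28 and -0.151.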

How the data were processed

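RNA of flow-sorted tumour epithelial cells was extracted from TRIzol and made into low-input libraries without molecular identifiers, with PCR cycles set by RNA input, per the labels' protocols. The authors deposited for each library the expected count and the TPM of 147828 transcripts, quantified with Salmon 1.9.0 on GRCm39 per the submitters' processing notes. Transcripts were matched by identifier to GENCODE M21 (GRCm38, names and transcript structure only). Of them 137063 (92.7%) had a gene, with 98.1 to 98.7% of the counts, and the others were left out. Counts were summed per gene and rounded, and TPM summed.

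The 10 libraries were compared, 5 against 5, in edgeR 4.0.16 by its quasi-likelihood test (TMM, default filter with a minimum count of 10, no covariate), tested on simulated data, with Benjamini-Hochberg adjustment and a threshold of 0.05. TPM were compared as log2(TPM + 1) by exact two-sided permutation over 252 assignments. Correlations used log2 CPM (prior count 2) and 100000 permutations. Alternatives were other normalisations, no filter, DESeq2 1.42.0, voom and TPM in limma 3.58.1, length offsets, the file-name number as covariate and leaving out each library. Members and lists were chosen with earlier results of these data known. All 10 genes were named. From each other list the 3 most abundant and the 3 of lowest p were named, and a receptor or counterpart was given beside its ligand. The Il36rn gene of the ligand list was not matched. Il6-204, Col1a1, Ly6g, the Il1rn level without its shortest transcript, the order within each group and the left-out libraries named beside a gene were picked after their values were seen. For likeness, the 3 genes of highest correlation with Csf1 and with Il1rn were taken, and 1 of those for Csf1 is not reported here.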

Additional observations from a re-analysis of the deposited data

Results flagged for a closer look

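On the log2 CPM scale, Csf3 in KO 5, at 9.535 CPM, stood far below the other 4 libraries of its group, which lay between 18.7 and 23.3 CPM. The gap to the nearest library made up 0.755 of the log2 range of the group, above Dixon's critical value of 0.71 for 5 libraries. Of 20 groups tested on that scale (10 genes in 2 groups) this was the only one, and chance gives about 1 in 20. On the CPM scale, added after the data were seen, the Csf3 ratio was 0.667 and did not pass. On that scale 3 other high libraries passed: Il6 in KO 3 (0.812), Il1a in WT 5 (0.781) and Il1rn in KO 2 (0.711). For Csf3 the log2 fold change was 0.23 with all libraries, 0.40 without KO 5 and 0.06 without WT 1.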

How the results depend on the processing

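No paired analysis was possible because the labels give no replicate numbers that link a library of one group to a library of the other. Of 180 recomputed fold changes of the 10 genes, 172 kept direction and side of the threshold, and 7 reversed direction. Since settings other than DESeq2 called few or no genes, the side of the threshold could hardly change. The count thus speaks mainly for direction and not for size. Csf1 passed the threshold with DESeq2 (log2 fold change -1.02, adjusted p 0.00552), so DESeq2 called 1 of the 10 genes and the other settings 0. For Csf1 the adjusted p ran from 0.00552 to 0.379 over the whole-sample alternatives and from 0.23 to 0.722 in edgeR when a library was left out. Leaving out a library in turn gave -1.16 to -0.89 for Csf1, -1.36 to -0.84 for Il33, -1.58 to -0.70 for Il18 and 0.35 to 1.26 for Csf2. It reversed Il1rn (-0.12 to 0.22, below 0 without WT 2 or KO 2) and Il6 (-1.12 to 0.18, above 0 without WT 5 or KO 1, 2, 4 or 5). The range was 0.36 to 0.91 for Il1a, 0.15 to 0.89 for Lif, 0.06 to 0.42 for Csf3 and -1.23 to -0.63 for Il1b. With all libraries, Il6 was -0.65 with voom, -0.51 with limma on TPM and -0.83 with the file-name covariate, against -0.08. Il1rn also reversed on log2(TPM + 1), from -0.13 to 0.20. The exact permutation p of Il33 missed 0.05 in 6 of its alternatives. Over all genes, the count past the threshold was 0, but 127 with DESeq2, 1 with no filter, 1 with limma on TPM, and 0 to 4 when a library was left out. The cause was not tested. Il1b and Il6, with as few as 11 and 18 estimated counts in a library, are limited by depth.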
